A study of Mus musculus with 2 samples.

Results

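Il21 and Il2 are neighbouring cytokine genes on mouse chromosome 3, and the binding of STAT3 and STAT5 around them was read from 2 chromatin immunoprecipitation sequencing libraries of T helper 17 (Th17) cells. The members were chosen by position alone, as all places between 36990000 and 37220000 on mm9, a stretch of 230 kb with the Il21 span at about 37.121 to 37.132 Mb and the Il2 span at about 37.019 to 37.025 Mb. A site was a 200 bp window with at least 1 RPM (reads scaled to 1000000 nuclear reads of the library) and the highest count within 300 bp in its library. By this rule the interval held 93 of the 101140 sites of the genome, of which 85 lay nearer to Il21 and 8 nearer to Il2.

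The STAT3 library came from cells restimulated with IL-6 (40 ng/ml, 30 minutes) and used 5 ug of a STAT3 antibody. The STAT5 library came from cells restimulated with IL-2 (200 IU/ml, 30 minutes) and used STAT5A and STAT5B antibodies together, 2 ul of each. Both groups were wild type C57BL/6J cells, taken from lymph nodes and spleen, sorted as naive CD4+ T cells and grown for 3 days with antibodies to CD3, CD28 and IL-4, with TGF-beta (2 ng/ml) and with IL-6 (20 ng/ml); the labels also list an antibody to IL-2, in a unit usual for the cytokine. Antibody and cytokine changed together, with 1 library per group and no input library analysed here, so every difference between the libraries lacks a replicate check, no p-value is given, and intervals cover counting error only. A binding assay does not measure expression, so the cell type could not be set against its marker genes.

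IL-21 and IL-2 are related cytokines whose receptors share the common gamma chain. IL-2 is the growth factor that activated T cells make soon after antigen recognition, and it signals mainly through STAT5. IL-21 is made by Th17 and follicular helper T cells, signals mainly through STAT3, and in mouse Th17 cells its gene is a known target of STAT3 downstream of IL-6, while IL-2 acting through STAT5 is known to restrain Th17 differentiation.

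The bases before the start of each gene are shown because the gene starts divide the loci: a tall site of both libraries lay at the Il21 start, and none at the Il2 start. They come from RefSeq on GRCm38.p6, a later build than that of the reads, minus strand, at chr3:37232637-37232886 for Il21 and chr3:37125955-37126204 for Il2. No coordinate was converted between the builds, and the gene spans that place the sites are rounded. The Il21 bases therefore need not cover the tall site, and whether they do was not tested. Both genes are on the minus strand, so the upper end of each span is its start and higher positions are upstream. Each line holds 250 bases, 5′ to 3′, ending just before the start. Capitals mark matches to any of the motifs searched.
Il21: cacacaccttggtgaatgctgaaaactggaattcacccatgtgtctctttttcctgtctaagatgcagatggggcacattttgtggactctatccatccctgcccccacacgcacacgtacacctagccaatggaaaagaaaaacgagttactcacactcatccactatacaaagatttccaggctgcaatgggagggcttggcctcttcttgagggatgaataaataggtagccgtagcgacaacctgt
Il2: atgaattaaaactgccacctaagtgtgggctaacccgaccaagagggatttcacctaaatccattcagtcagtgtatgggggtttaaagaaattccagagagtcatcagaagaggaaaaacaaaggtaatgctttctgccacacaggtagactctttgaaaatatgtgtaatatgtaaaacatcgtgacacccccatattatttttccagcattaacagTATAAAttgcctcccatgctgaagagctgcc

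The motifs were searched on both strands and did not overlap one another. TTCNNNGAA, the palindrome that STAT dimers recognise, had 0 matches in the Il21 sequence and 0 in the Il2 sequence, and 7.02% of 32851 RefSeq promoters of the same length held it. TGANTCA, the AP-1 motif, also had 0 matches in either, against 6.75% of promoters. TATAAA, the TATA box, had 1 match, in Il2 and starting at -31 from the gene start, and 12.4% of promoters held it. A missing match says only that these letters are not in these windows, which need not cover the tall site at the Il21 start.

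The interval was rich in reads of both antibodies. It held 14482 STAT3 reads and 17101 STAT5 reads, which is 697 and 952 RPM at depths of 20784388 STAT3 and 17963766 STAT5 nuclear reads. Per kb there were 63.0 STAT3 reads (95% Poisson interval 61.9 to 64.0) and 74.4 STAT5 reads (73.2 to 75.5), 7.15-fold and 9.77-fold over the genome-wide means of 8.80 and 7.61. Of all stretches of this length in the genome that hold reads, taken every 10 kb and overlapping one another, 0.0234% had as many STAT3 reads and 0.0555% as many STAT5 reads. Sites numbered 404 per Mb in the interval and 42.8 per Mb in the genome, and neighbouring sites lay a median of 1050 bp apart.

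**Figure D1:**
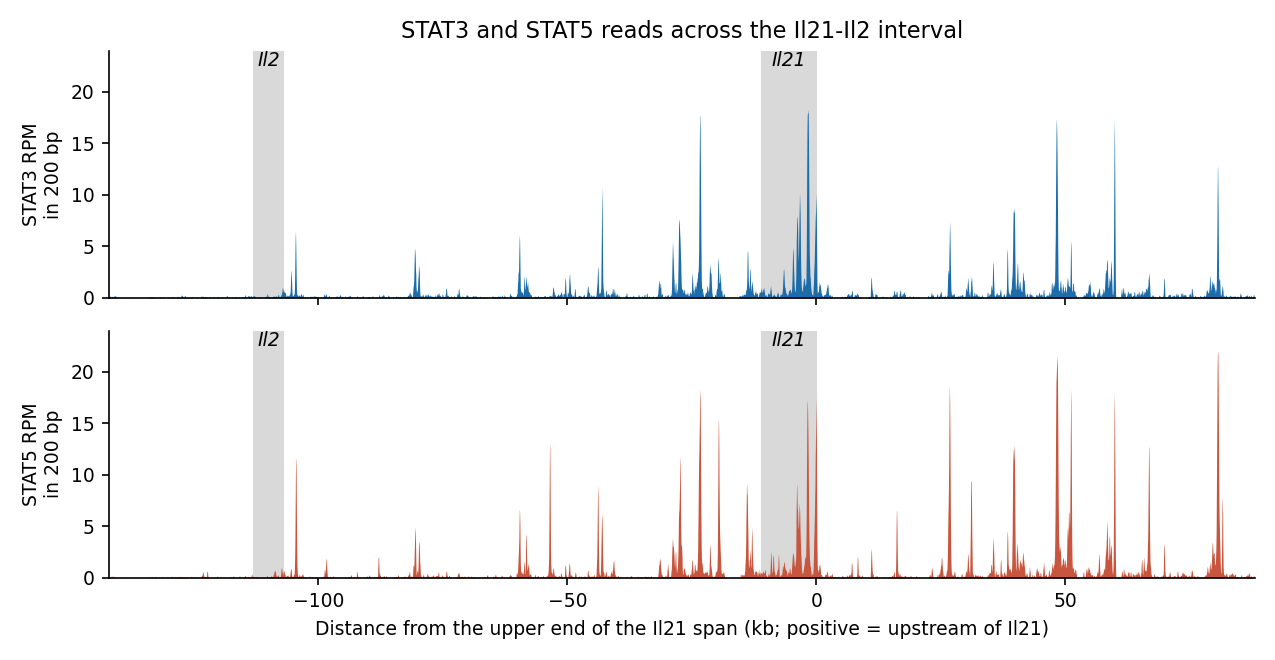
RPM in 200 bp windows moved by 50 bp, STAT3 above and STAT5 below, against distance in kb from the upper end of the Il21 span; grey bands are the gene spans. Tall peaks run from the right part of the stretch between the genes through Il21 to the right edge in both libraries, while the stretch to the left of Il2 is almost empty.

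Most of this signal lay by Il21 and not by Il2. The sides were divided at 37.073 Mb, midway between the spans, which sorts sites by the nearer of Il21 and Il2. Other genes nearby were not considered, and the division says nothing of the gene that sites act on. The Il21 side had 12788 STAT3 reads, 87.0 per kb (85.5 to 88.5), and the Il2 side 1694, 20.4 per kb (19.4 to 21.4), a ratio of 4.26 (95% interval 4.05 to 4.49). For STAT5 the Il21 side had 15575 reads, 106 per kb (104 to 108), and the Il2 side 1526, 18.4 per kb (17.5 to 19.3), a ratio of 5.76 (5.47 to 6.08). Each ratio is within 1 library, so it does not depend on the scaling between the libraries.

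Of the parts of the Il21 side, the gene span had the most reads per kb. The Il21 span had 251 STAT3 reads per kb (242 to 261) and 222 STAT5 reads per kb (213 to 231), 28.5-fold and 29.1-fold over the genome. The 88 kb upstream of it had 70.2 STAT3 and 99.9 STAT5 reads per kb, and the 48 kb downstream, towards Il2, had 80.1 and 90.6. The intervals of these parts do not overlap those of the span in either library. Of 10 kb bins, the one from 37100000 to 37109999, downstream of Il21, had the most STAT3 reads, 1791 (with 1821 STAT5 reads), and the one from 37180000 to 37189999, upstream, had the most STAT5 reads, 2208 (with 1374 STAT3 reads). The parts differ in width, so the span of 11 kb is better set against such bins. It held 2764 STAT3 reads, more per kb than any bin, and 2440 STAT5 reads, about as many per kb as the upstream bin.

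The Il2 span had far fewer reads. It had 93 STAT3 and 95 STAT5 reads, 15.5 per kb (12.5 to 19.0) and 15.8 per kb (12.8 to 19.4), which is 1.76-fold and 2.08-fold over the genome. Downstream of Il2, from 36990000 to 37018999, the 156 STAT3 and 128 STAT5 reads came to 0.611-fold and 0.580-fold of the genome mean, and no site was found. Upstream of Il2, as far as the dividing point, there were 30.1 STAT3 and 27.1 STAT5 reads per kb, 3.42-fold and 3.57-fold over the genome, with 7 of the 8 sites of the Il2 side.

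The sites of the Il21 gene came in a run that ends at the gene start. The Il21 span held 11 sites, of which 5 had 100 or more STAT3 reads in 200 bp and 4 had 100 or more STAT5 reads. Across all sites of the interval these shares were 18.3% for STAT3 and 25.8% for STAT5, against 8.55% and 15.1% of sites in the genome. The tallest STAT3 site of the interval was here, from 37130201 to 37130400, about 1.7 kb inside the gene from its start. It had 380 STAT3 reads and 246 STAT5 reads, 18.3 and 13.7 RPM, and ranked 23rd of all sites by STAT3 and 3963rd by STAT5.

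The libraries peaked at different places in that site. The STAT5 peak was highest 150 bp nearer to the gene end, where it reached 310 reads. With each library read at its own highest window within 200 bp, the counts were 380 STAT3 and 310 STAT5 reads, and the ratio of RPM was 1.06 (0.909 to 1.23) in place of 1.34 (1.13 to 1.57). Both ratios are compressed, because no position and strand occurs more than once in a deposited file and 200 bp can hold no more than 400 reads. STAT3 had taken 95% of these positions here and STAT5 61.5%, or 77.5% at its own highest window. A correction for positions already taken, which treats all 400 as equally likely to be read, gave a ratio of 2.71 (2.22 to 3.30), and 1.74 (1.43 to 2.10) with each library at its own highest window. The ratio thus ran from 1.06 to 2.71 by how the same reads were counted.

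At the Il21 start itself STAT5 was the higher of the libraries. The site from 37131801 to 37132000 had 211 STAT3 reads and 316 STAT5 reads, 10.2 and 17.6 RPM. Its ratio was 0.577 (0.482 to 0.689), or 0.415 (0.344 to 0.501) when corrected for positions already taken, and both libraries peaked in the same window. Span ends are known to about 1 kb, so this site is at the start only within that margin. Just upstream the site from 37132501 to 37132700 had only 33 STAT3 and 22 STAT5 reads.

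Further into the gene the balance varied from site to site. From 37128501 to 37128700 STAT3 reads numbered 212 and STAT5 reads 122, and at each library's own highest window 212 and 131, a ratio of 1.40 (1.12 to 1.75). Next to it, from 37127951 to 37128150, there were 161 and 166, a ratio of 0.838 (0.671 to 1.05). From 37127151 to 37127350 STAT3 reads numbered 101 and STAT5 reads 43, a ratio of 2.03 (1.41 to 2.97), and from 37125301 to 37125500 they numbered 59 and 23, a ratio of 2.22 (1.35 to 3.76). Between these and the tallest site lay one of 40 reads of STAT3 and 22 of STAT5, from 37129401 to 37129600.

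The sites near the gene end were low, and 3 of these 4 had more STAT5 than STAT3 reads. From 37123251 to 37123450 there were 5 STAT3 and 40 STAT5 reads (ratio 0.108, 0.0333 to 0.274), and from 37124251 to 37124450 there were 7 and 42 (0.144, 0.0546 to 0.324). At its own highest window STAT3 had 13 reads at this second site, and the ratio of 0.268 (0.132 to 0.508) no longer lay wholly beyond 2-fold. The site from 37122751 to 37122950 had 17 reads of STAT3 and 46 of STAT5, and the site from 37121301 to 37121500 had 22 and 9. The site nearest the lower end of the span, just outside it from 37120851 to 37121050, had 21 and 9. Summed over the whole span the reads came to 133 RPM for STAT3 and 136 RPM for STAT5, with a ratio of 0.979 (0.927 to 1.03).

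**Figure D2:**
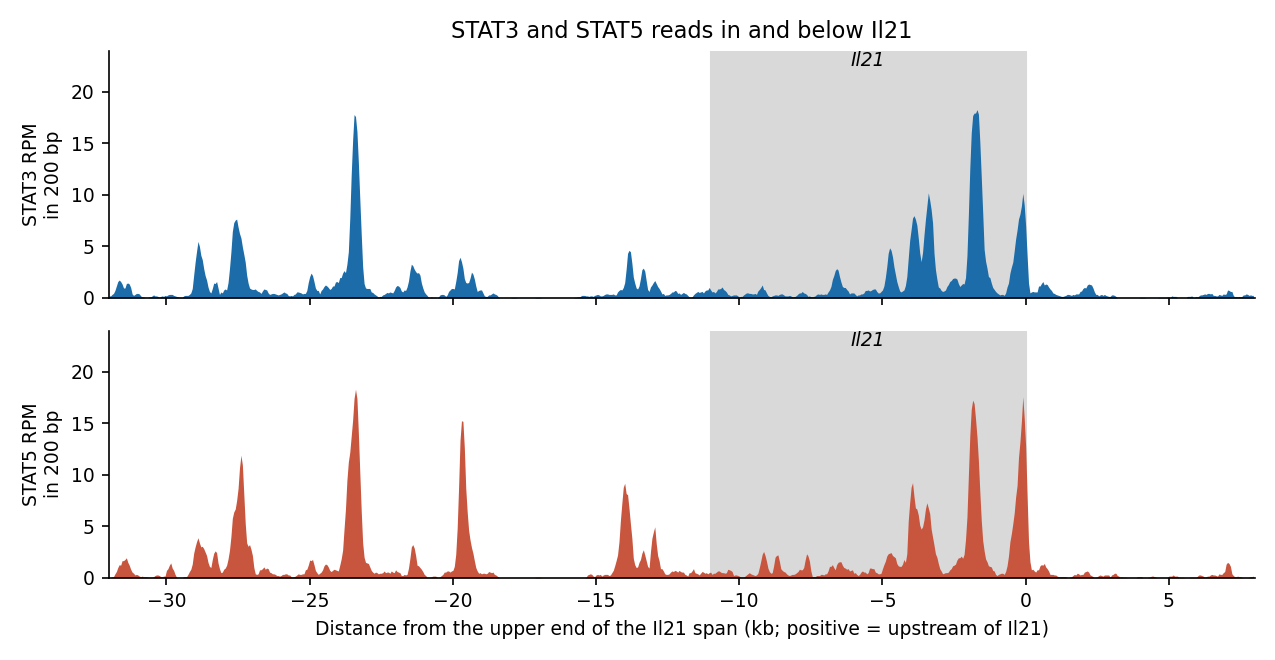
RPM in 200 bp windows, STAT3 above and STAT5 below, from 32 kb below to 8 kb above the upper end of the Il21 span (grey). Both libraries peak near -23, -1.7 and 0 kb; the peak at the right edge of the span is higher in STAT5, and a STAT5 peak near -20 kb stands where STAT3 is low.

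Downstream of Il21, towards Il2, both antibodies shared a further tall site. From 37108501 to 37108700, about 23.4 kb from the gene start, there were 366 STAT3 and 329 STAT5 reads, 17.6 and 18.3 RPM, ranked 49th by STAT3 and 1517th by STAT5. The ratio was 0.961 (0.826 to 1.12). STAT3 had taken 91.5% and STAT5 82.2% of the positions, and correction for this turned the direction, to 1.23 (1.03 to 1.48). A second place, from 37088801 to 37089000, leaned to STAT3 with 225 and 111 reads, a ratio of 1.75 (1.39 to 2.22), or 2.20 (1.74 to 2.79) when corrected. At the next site, from 37088001 to 37088200, the counts were 64 reads of STAT3 and 162 of STAT5, a ratio of 0.341 (0.252 to 0.459), or 0.290 (0.214 to 0.390) when corrected. Neighbouring sites of the same cluster thus differed in which library was higher.

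The most one-sided site of the interval lay in the same stretch. From 37078351 to 37078550 there were 3 STAT3 and 235 STAT5 reads, 0.144 and 13.1 RPM, a ratio of 0.0110 (0.00226 to 0.0326). The STAT3 count compares with a genome-wide mean of 1.76 reads in 200 bp, and the highest STAT3 window within 200 bp had 6 reads. Correction for positions already taken lowered the ratio to 0.00735 (0.00150 to 0.0218). In the genome 105 sites had 200 or more STAT5 and at most 3 STAT3 reads, 1.75% of the sites with that many STAT5 reads. From 37112201 to 37112400 the counts were 73 reads of STAT3 and 274 of STAT5, a ratio of 0.230 (0.175 to 0.299), against 0.259 (0.200 to 0.332) with each library at its own highest window and 0.151 (0.114 to 0.197) when corrected.

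Upstream of Il21 most of the tallest peaks were higher with STAT5. The tallest site of the interval in either library lay from 37212451 to 37212650, about 80.6 kb upstream, with 267 STAT3 and 396 STAT5 reads, 12.8 and 22.0 RPM. Its ratio was 0.583 (0.497 to 0.682), and it ranked 673rd by STAT3 and 70th by STAT5. STAT5 had taken 99% and STAT3 66.8% of the 400 positions, and the corrected ratio was 0.207 (0.161 to 0.268), wholly beyond 2-fold. On GRCm38 the next genes beyond Il21 are Cetn4 and Bbs12, and whether this site is at their starts was not tested, since positions were not converted.

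A cluster about 48.3 to 59.8 kb upstream of Il21 held further tall sites of both libraries. From 37180201 to 37180400 there were 291 STAT3 and 388 STAT5 reads, 14.0 and 21.6 RPM. Their ratio was 0.648 (0.555 to 0.757), and 0.809 (0.699 to 0.935) with STAT3 at its own highest window, 150 bp lower, where it had 363 reads. STAT5 had taken 97% of the positions, and correction gave 0.320 (0.261 to 0.394) in the common window and 0.587 (0.476 to 0.725) at the highest windows. From 37191701 to 37191900 the counts were 363 reads of STAT3 and 323 of STAT5, a ratio of 0.971 (0.834 to 1.13), ranked 58th by STAT3 and 1664th by STAT5. With 90.8% of positions taken by STAT3 and 80.8% by STAT5, correction turned this direction too, to 1.25 (1.04 to 1.497). Between these lay a site led by STAT5, from 37182951 to 37183150, with 115 reads of STAT3 and 330 of STAT5, a ratio of 0.301 (0.241 to 0.374), or 0.168 (0.134 to 0.210) when corrected.

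Closer to the gene, about 26.7 kb upstream, a further STAT5 peak stood with a lower STAT3 peak. From 37158601 to 37158800 there were 138 STAT3 and 335 STAT5 reads, 6.64 and 18.6 RPM, a ratio of 0.356 (0.290 to 0.435), or 0.201 (0.162 to 0.249) when corrected. Over the whole part upstream of Il21 the reads came to 297 RPM for STAT3 and 489 RPM for STAT5, a ratio of 0.608 (0.588 to 0.628), lower than the 0.979 of the gene span and the 0.764 (0.732 to 0.798) of the part downstream, and these 3 intervals do not overlap. Sums over parts were not corrected for positions already taken.

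Sites tall with both antibodies were gathered by Il21. Of the 93 sites, 6 had 200 or more reads of each antibody (6.45%), against 959 of 101140 in the genome (0.948%). They were the sites already given at 37108501, 37130201, 37131801, 37180201, 37191701 and 37212451, all on the Il21 side. By STAT3, 5 sites were among the tallest 1% of the genome, and by STAT5, 2 were. Sites of 1 cluster share their surroundings and are not independent of each other.

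By Il2 the main site stood upstream of the gene. It lay from 37027401 to 37027600, about 2.5 kb from the Il2 start, with 76 STAT3 and 209 STAT5 reads, 3.66 and 11.6 RPM, a ratio of 0.314 (0.238 to 0.411). STAT3 was highest 100 bp nearer to the gene, with 135 reads, and with each library at its own highest window the ratio was 0.558 (0.446 to 0.696), so that the interval no longer lay beyond 2-fold. Correction for positions already taken gave 0.246 (0.187 to 0.323) in the common window and 0.481 (0.384 to 0.602) at the highest windows. As counted, the tallest Il21 site had the higher ratio (0.583, against 0.314 here), and corrected in the common window the lower one (0.207, against 0.246), with overlapping intervals. At each library's own highest window the tallest Il21 site stayed at 0.583 (0.497 to 0.682), against 0.558 here. Corrected at the highest windows it had 0.207 (0.161 to 0.268), against 0.481 (0.384 to 0.602) here, and these intervals do not overlap. In the common window this site ranked 13720th by STAT3 and 5465th by STAT5. With all sites read at each library's highest window it ranked 5046th by STAT3 and 5557th by STAT5, below each of the 6 sites of the Il21 side that had 200 or more reads of each antibody.

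About 1 kb nearer to Il2 a smaller site was higher with STAT3. From 37026401 to 37026600, about 1.5 kb from the gene start, there were 56 STAT3 and 15 STAT5 reads, 2.69 and 0.835 RPM. The ratio of 3.23 (1.80 to 6.14) was the highest of all 93 sites, though its interval did not clear 2-fold. The site nearest the Il2 start, from 37024451 to 37024650 and inside the span, had 6 STAT3 and 18 STAT5 reads, and STAT3 reached 20 reads within 200 bp of it. It was the lone site of the Il2 span.

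**Figure D3:**
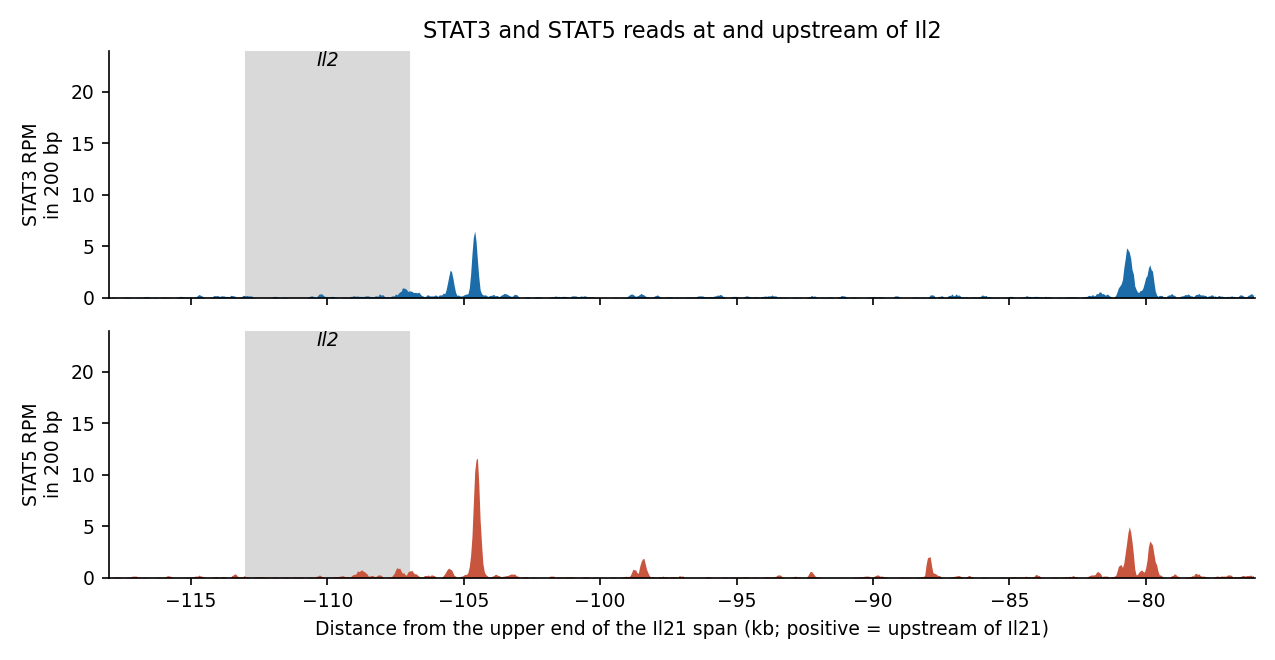
RPM in 200 bp windows, STAT3 above and STAT5 below, on the same vertical scale as the Il21 plot, from 118 to 76 kb below the upper end of the Il21 span; the grey band is the Il2 span. The tallest peak, upstream of Il2, reaches 11.6 in STAT5, with STAT3 peaking 100 bp to its left, and the gene span is nearly flat in both.

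The other sites of the Il2 side were modest, the taller ones balanced and the low ones led by STAT5. A pair about 26.4 and 27.1 kb upstream of Il2 had 92 STAT3 and 89 STAT5 reads (37051301 to 37051500) and 67 and 64 (37052051 to 37052250). Their ratios were 0.893 (0.660 to 1.21) and 0.905 (0.633 to 1.29). The site just below the dividing point, from 37072251 to 37072450, had 128 reads of STAT3 and 120 of STAT5, a ratio of 0.922 (0.713 to 1.19), and belongs to a cluster that the dividing line splits. Low sites from 37033501 to 37033700 and from 37044001 to 37044200 had 6 STAT3 reads each and 34 and 37 STAT5 reads. Their ratios were 0.153 (0.0523 to 0.368) and 0.140 (0.0483 to 0.335), both wholly beyond 2-fold, also with each library at its own highest window.

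The question of the series is where the 2 factors bind in the same kind of cell, and here about as many sites were shared as elsewhere. Without a control library, sites include any place that yields reads whatever the antibody. Of the 93 sites, 50 had a summit in both libraries, 16 in STAT3 alone and 27 in STAT5 alone. The share with both was 53.8%, against 50.5% in the genome. A summit in 1 library alone does not mean that the other lacked reads there. The site from 37191051 to 37191250, a summit in STAT3 alone, had 77 STAT3 and 58 STAT5 reads. The one from 37190701 to 37190900, in STAT5 alone, had 43 and 74. Sites whose 95% interval of the ratio lay wholly beyond 2-fold were called higher with that antibody. In the interval 0 sites were called higher with STAT3, where 3.05% of all sites were, and 18 of 93 (19.4%) were called higher with STAT5, where 25.7% of all sites were. The share led by STAT5 was thus not above the background. Corrected for positions already taken, 1 site was called higher with STAT3 (1.08%, background 3.87%), the tallest STAT3 site at 37130201. With the same correction 21 were called higher with STAT5 (22.6%, background 27.3%), all 18 among them. The Il21 side held 15 of the 18 among its 85 sites and the Il2 side 3 among its 8, a larger share but of few sites. At each library's own highest window 12 sites of the Il21 side and 2 of the Il2 side were called. A common window is centred on the taller summit, which favours that library where the summits lie apart.

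With each library read at its own highest window within 200 bp, 14 sites were called higher with STAT5 (15.1%, background 22.3%) and 0 with STAT3 (background 2.04%), and 13 of the 18 stayed called. With correction as well, 17 were called higher with STAT5 (18.3%, background 24%) and 0 with STAT3 (background 2.77%). With the common window and intervals beyond 1.5-fold, 24 sites were higher with STAT5 (25.8%, background 31.6%) and 1 with STAT3 (1.08%, background 6.68%). The 18 sites had 3 to 138 STAT3 reads, median 18.5, and 31 to 335 STAT5 reads, median 151. Those not described above include sites upstream of Il21 from 37148001 to 37148200 with 14 reads of STAT3 and 118 of STAT5, from 37162901 to 37163100 with 35 and 170, from 37198601 to 37198800 with 47 and 229, and from 37213351 to 37213550 with 23 and 140. Downstream of Il21, the site from 37117901 to 37118100 had 31 and 165 reads but 96 STAT3 reads in its highest window, 150 bp away, which ended its call. Low sites from 37091151 to 37091350, from 37140151 to 37140350 and from 37157001 to 37157200 had 5, 8 and 7 STAT3 reads with 31, 37 and 36 STAT5 reads. At each library's own highest window the first had 19 STAT3 reads and a ratio of 0.530 (0.283 to 0.968) and the last 13 and 0.312 (0.152 to 0.603), and neither stayed called.

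**Figure D4:**
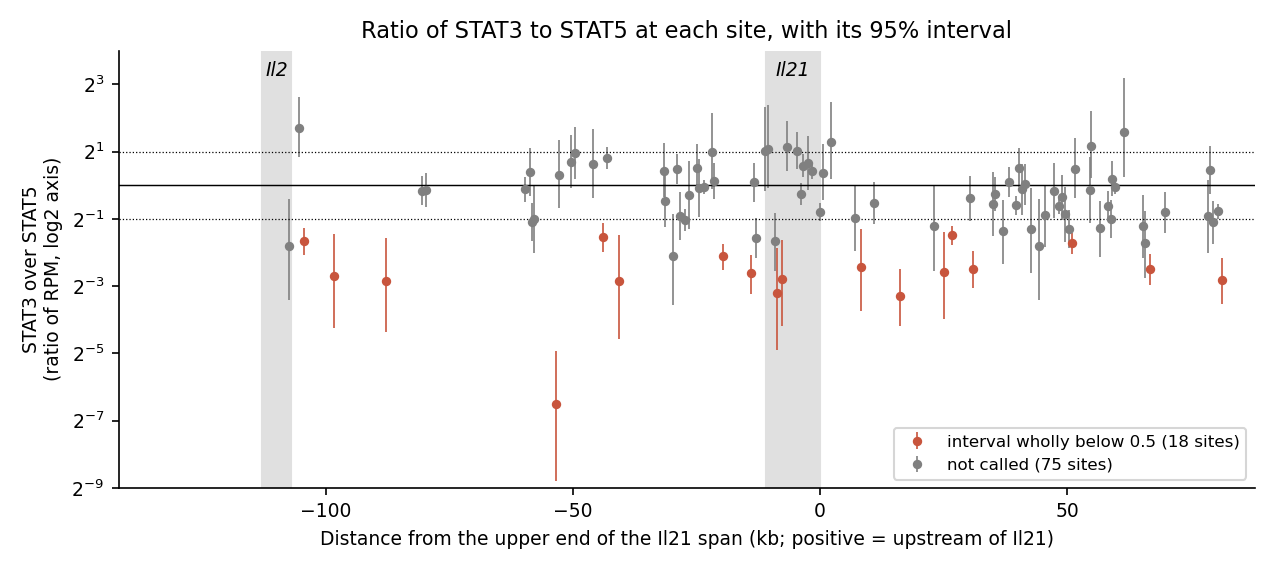
Ratio of STAT3 to STAT5 RPM at each of the 93 sites (log2 axis), with its exact 95% interval, against distance from the upper end of the Il21 span; dotted lines mark 2-fold either way and grey bands the gene spans. With reads as counted, the 18 coloured sites lie wholly below 0.5 and are spread over the interval, and no site lies wholly above 2.

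Over all sites the ratios ranged from 0.0110 to 3.23, with a median of 0.684, against a median of 0.765 in the genome. On the Il21 side 29 of 85 sites had a ratio above 1 and on the Il2 side 1 of 8, together 32.3%, against 40.1% of sites in the genome. Corrected for positions already taken, the medians were 0.680 in the interval and 0.754 in the genome. Taken at each library's highest window, the medians were 0.815 in the interval and 0.809 in the genome. The ratio of all reads was 0.710 (0.693 to 0.726) on the Il21 side and 0.959 (0.895 to 1.03) on the Il2 side, so that STAT3 relative to STAT5 was 0.740 (0.687 to 0.796) times as high by Il21 as by Il2. This order rests on the width taken: within 10 kb of each gene span the ratio was 0.828 (0.791 to 0.866) by Il21 and 0.761 (0.678 to 0.854) by Il2, and the relation between them 1.09 (0.961 to 1.23). Such sums include reads outside sites. Sites held 43.1% of STAT3 and 47.2% of STAT5 reads on the Il21 side, and 25.8% and 38.4% on the Il2 side. By sites the order also varied: the median ratio was 0.684 on the Il21 side and 0.604 on the Il2 side. At each library's highest window these medians were 0.809 and 0.913. Scaling by reads in 10 kb bins without a site multiplies every ratio of STAT3 to STAT5 by 0.727, which takes the 1.34 and the 1.06 of the tallest STAT3 site below 1, while the correction for positions already taken moves both the other way, and leaves the relation between the sides as it is.

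**Figure D5:**
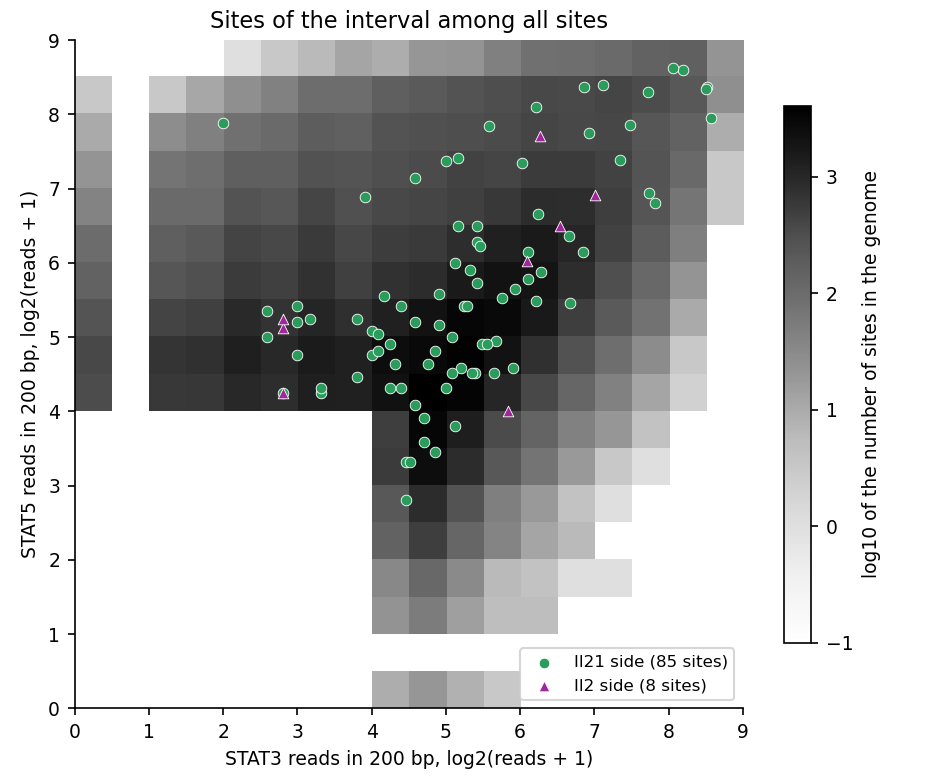
STAT3 reads (x) and STAT5 reads (y) in 200 bp at each site, log2(reads + 1), for the Il21 side (circles, 85 sites) and the Il2 side (triangles, 8 sites) over the number of all 101140 sites in grey bins of 0.5. Sites of the Il21 side reach the upper right corner, up to 380 STAT3 and 396 STAT5 reads, while the Il2 side stays at or below 128 STAT3 and 209 STAT5 reads; the empty lower left corner follows from the minimum of 1 RPM.

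The number of sites depends on how a site is defined. Means over the surroundings include the neighbouring sites: when a window also had to exceed 4 times the means of the 5 kb and the 10 kb around it, 30 sites were found in place of 93, and 75483 in place of 101140 in the genome. With a minimum of 2 RPM 59 sites were found in the interval and 55294 in the genome. At the 24 sites with a summit in both libraries and 50 or more reads of each, the median fragment position differed by a median of 21.2 bp, and by 25 bp or less at 13. At the sites with 50 or more reads, plus strand shares ran from 44.1 to 59.7% for STAT3 and from 44.3 to 70.7% for STAT5.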

How the data were processed

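Each deposited file lists aligned reads of 25 nt, 1 line per read, with both ends counted from 1; mm9 is the genome build per the submitters' processing notes, while the sources used here name no aligner or filter. The deposited score was 0 in every line and was not used. Nuclear reads were all at different positions and strands. Read 5′ ends were moved 50 bp in the 3′ direction and counted in 200 bp windows moved by 50 bp with Python 3.11.15, numpy 2.4.6, scipy 1.17.1 and pandas 2.3.3 (plots: matplotlib 3.10.9). A site needed 1 RPM (21 STAT3 or 18 STAT5 reads), the highest count within 300 bp and a Poisson p against the genome-wide mean, adjusted by the Benjamini-Hochberg method, at or below 1e-05. The genome-wide mean used the 2360788000 bp whose 1 kb bins held a read. Summits within 200 bp of each other were joined. Ratios are STAT3 over STAT5 with exact conditional 95% intervals. The correction for positions already taken is the Poisson relation between reads drawn and positions filled, and its intervals widen as few positions stay free. Distances use the gene spans of the selection rule, rounded to 1 kb; strand and neighbours come from RefSeq on GRCm38. Named were the 5 tallest sites of each side, all called sites and those nearest the span ends; others were named after their values were seen. The members, thresholds and alternatives were chosen with earlier results of these data known. Site finding was tested on simulated reads with well separated planted sites and without the minimum of 1 RPM. Clusters as dense as those of the interval were not simulated.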

Additional observations from a re-analysis of the deposited data

How the results depend on the processing

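No paired analysis was possible because each group had 1 library. Of 129 recalculations under 12 planned and 4 later alternatives, 101 stayed within the main 95% interval or, for counts, within 1.5 times. Of the others, 27 moved beyond it and 1 turned direction, with an interval that included 1. Part of the 101 could not have moved. Scaling leaves ratios within 1 library and the relation between the sides as they are. Neither scaling nor thinning STAT3 alters the STAT5 reads. Where the tallest sites stay sites, settings that only redefine a site leave their ratios unchanged. The cause of the changes was not tested beyond what each setting fixes. Sites in the interval numbered 59 with a minimum of 2 RPM and 30 with local means. Scaling by 10 kb bins without a site multiplies STAT3 by 0.727: STAT3 reads in the interval became 507 RPM, STAT3 over STAT5 became 0.516 on the Il21 side and 0.698 on the Il2 side, and 0.424 and 0.229 at the tallest Il21 and Il2 sites. With 10 kb around each gene span, STAT3 over STAT5 was 0.828 and 0.761 by Il21 and Il2, and the Il21 side over the Il2 side was 5.56 in STAT3 and 5.12 in STAT5. In this setting STAT3 over STAT5 at Il21 relative to Il2 was 1.09 (0.961 to 1.23), past 1 as a value but with an interval that includes 1. The tallest Il2 site had a ratio of 0.458 in 400 bp, 0.440 with a shift of 75 bp and 0.558 at each library's own highest window, a setting chosen after the data were seen. Correction for positions already taken gave 0.207 at the tallest Il21 site, and at each library's own highest window, a pairing chosen later, 0.207 there and 0.481 at the tallest Il2 site. Without the uppermost 20 kb, also chosen later, the Il21 side had a STAT3 over STAT5 ratio of 0.733 and 4.54 times the STAT3 reads per kb of the Il2 side. Moving the dividing point 5 kb towards Il2, chosen later too, gave 4.79 in STAT3 and 6.32 in STAT5. STAT5-higher sites in the interval numbered 13 to 25 under all alternatives, and STAT3-higher sites 0 or 1, with 1 under the correction in the common window, a shift of 75 bp and a limit of 1.5-fold.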

Other observations

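The sites elsewhere in the genome nearest in both levels to the tallest site of the Il21 side (267 STAT3 and 396 STAT5 reads) were 129180351 to 129180550 on chromosome 6 (also 267 and 396), 51010001 to 51010200 on chromosome 6 (264 and 396) and 36247651 to 36247850 on chromosome 12 (266 and 390). Likeness was the distance on the log2 scale of RPM over the 2 libraries, and it says nothing of shared function.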
